A study of Homo sapiens with 4 samples.

Results

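The 10 tubulin genes TUBA1A, TUBA1B, TUBA1C, TUBA4A, TUBB2A, TUBB2B, TUBB3, TUBB4B, TUBB6 and TUBG1 were followed in glioma cells with acquired resistance to temozolomide and in the parental cells they came from. The genes were chosen by name, and their Ensembl identifiers were matched to GENCODE symbols in a table of 58219 genes. All 10 were found, and all 10 passed the filter on low values, as did 16132 genes of the whole table.

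Temozolomide (TMZ) is an alkylating drug used against glioblastoma. RNA sequencing was available for a TMZ-resistant GBM8401 line, grown in medium with 200 µM TMZ over 140 days, and for parental GBM8401 cells with no drug, with 2 libraries in each group. GBM8401 is a human malignant glioma cell line, and the series' design text speaks of 1 resistant line. The labels call the replicates biological but name no separate derivations, so p-values measure the spread between these cultures and not between independently derived resistant lines.

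Microtubules are polymers of alpha- and beta-tubulin dimers, and gamma-tubulin sits in the ring complex that starts their growth. Humans carry several genes for each class, which encode nearly identical proteins that differ mainly in their acidic tails and in the tissues that use them. Cells adjust tubulin mRNA to the amount of free dimer: when free tubulin is high, the factor TTC5 reads the first residues of the new chain on the ribosome and the mRNA is degraded. Class III beta-tubulin (TUBB3) is best known from neurons and is also studied in drug-resistant tumours.

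The start of the coding sequence is shown for all 10 genes, because the signal that TTC5 reads lies there. The lines give 24 coding bases from GENCODE 29, 5′ to 3′, with codons 1 to 4 in capitals.
TUBA1A: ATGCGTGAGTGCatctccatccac
TUBA1B: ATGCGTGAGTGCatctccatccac
TUBA1C: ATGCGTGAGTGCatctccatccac
TUBA4A: ATGCGTGAATGCatctcagtccac
TUBB2A: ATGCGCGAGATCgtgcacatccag
TUBB2B: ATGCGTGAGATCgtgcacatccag
TUBB3: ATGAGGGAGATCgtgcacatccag
TUBB4B: ATGAGGGAAATCgtgcacttgcag
TUBB6: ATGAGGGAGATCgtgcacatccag
TUBG1: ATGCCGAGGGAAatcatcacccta
The first codons encode methionine, arginine, glutamate and cysteine in the 4 alpha genes, and methionine, arginine, glutamate and isoleucine in the 5 beta genes. TUBG1 was the exception and did not begin with methionine, arginine and glutamate. TUBA1A, TUBA1B and TUBA1C had the same 24 bases.

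The ends of the coding sequences carry the acidic tails by which the proteins differ, and they are shown for 4 beta genes, among them the pair most alike and TUBB6. Each line gives the last 75 coding bases. Capitals mark bases that differ from TUBB2A, or have no TUBB2A base opposite them, after alignment of whole coding sequences.
TUBB2A: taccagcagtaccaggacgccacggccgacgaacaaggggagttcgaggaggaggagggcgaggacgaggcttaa
TUBB2B: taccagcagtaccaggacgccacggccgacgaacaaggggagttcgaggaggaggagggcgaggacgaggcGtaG
TUBB3: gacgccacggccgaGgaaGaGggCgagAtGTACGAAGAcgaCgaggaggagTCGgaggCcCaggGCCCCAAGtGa
TUBB6: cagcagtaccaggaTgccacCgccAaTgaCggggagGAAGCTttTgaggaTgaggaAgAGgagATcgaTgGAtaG
TUBB2B differed from TUBB2A at 2 of these bases. TUBB3 and TUBB6 had 29 and 22 marked bases, which include bases with no TUBB2A base opposite them. Over whole coding sequences, the 6 pairs of alpha genes were 84.4% to 97.2% identical and the 10 pairs of beta genes 83.4% to 98.1%. Of all windows of 100 bases in the main transcript, 89.0% in TUBB3, 56.4% in TUBB2A, 46.2% in TUBB2B, 37.2% in TUBA1B, 18.3% in TUBA1A, 14.9% in TUBG1 and 11.5% in TUBA1C occurred in a transcript of another gene as well. The share was 2.86% in TUBB4B, 1.84% in TUBA4A and 0 in TUBB6. How the authors divided fragments that match several genes is not given in the sources used here, so the values of TUBB2A and TUBB2B, of TUBA1A, TUBA1B and TUBA1C, and of TUBB3 and a read-through gene that holds most of its shared windows, are uncertain in how they were split. The same holds for TUBG1 and TUBG2, the gene with which TUBG1 shares its windows.

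The deposited unit is a gene's number of fragments after rescaling of its library, called scaled fragments here. Deposited totals were 23163310 and 24225039 in the resistant libraries and 24791254 and 25832511 in the parental libraries. Across all genes tested, 5991 of 16132 changed at an adjusted p under 0.05 in limma with Benjamini-Hochberg adjustment, which is 37.1%. Of these, 2621 were higher in resistant cells (16.2% of genes tested) and 3370 were lower (20.9%). The median log2 fold change of all genes tested was -0.02 as deposited and 0.08 when each library was scaled to its total, and with that scaling 56.9% of the calls were higher, against 43.7% as deposited. Fold changes are resistant over parental on the log2(value + 1) scale, with their standard error (SE).

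Tubulin mRNA was lower in resistant cells for most of the genes. Of the 10, 6 fell (TUBA1B, TUBA1C, TUBA4A, TUBB2A, TUBB4B and TUBB6), none rose and 4 did not pass the test (TUBA1A, TUBB2B, TUBB3 and TUBG1), against a background of 20.9% of all genes called lower. The median log2 fold change of the 10 was -0.54. Both resistant libraries lay below both parental libraries in 8 genes, an ordering found in 36.4% of all genes tested, and TUBA1A and TUBB3 overlapped between the groups. In bulk RNA, less RNA per cell and fewer cells of a kind that carries it cannot be told apart.

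**Figure D1:**
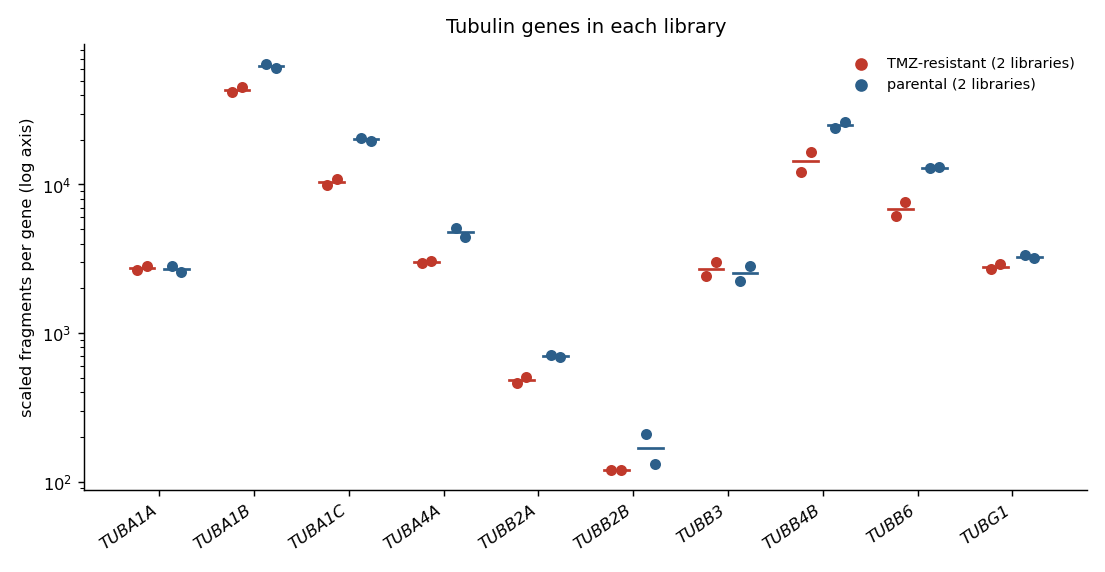
Scaled fragments per gene on a log axis for the 10 tubulin genes, with TMZ-resistant libraries in red to the left of parental libraries in blue. Points are libraries and bars are group means. The groups are apart for 8 genes and overlap for TUBA1A and TUBB3.

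**Figure D2:**
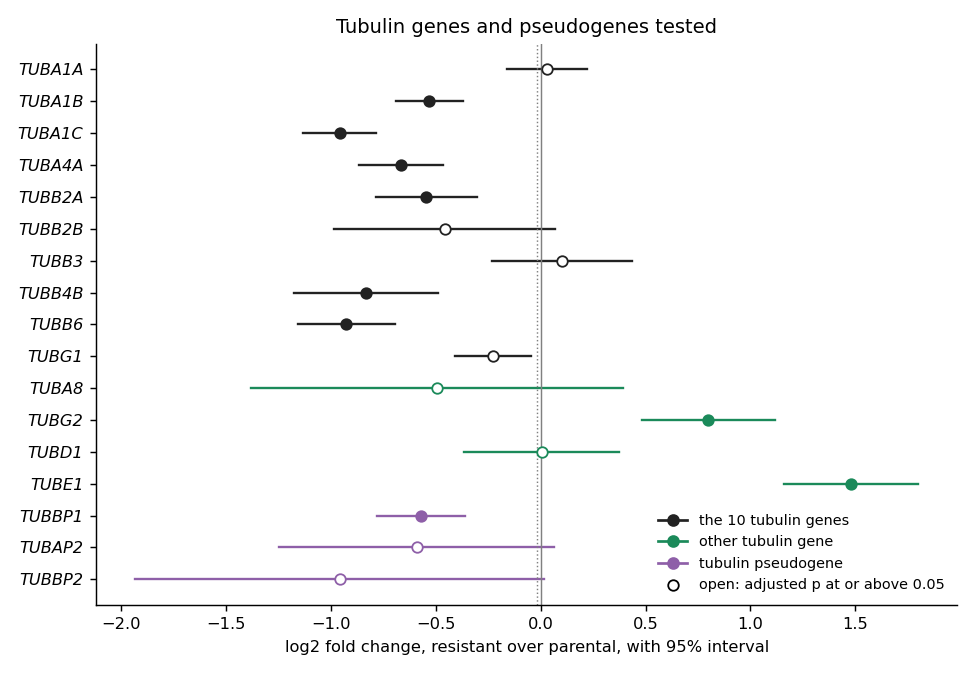
Log2 fold change, resistant over parental, with its 95% interval from limma, for the 10 tubulin genes, the 4 other tubulin genes tested and the 3 tubulin pseudogenes tested. Filled points have an adjusted p under 0.05, and the dotted line marks the median of all genes tested. TUBA1C has the lowest value of the 10 genes at -0.96, and TUBE1 the highest of all those shown at 1.48.

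TUBA1B is a main alpha-tubulin of dividing cells and had the highest level per kilobase of the 10 genes. It lies on the minus strand at chr12:49127782-49131397 (GRCh38). It had 41860 and 45264 scaled fragments in the resistant libraries, against 64482 and 61297 in the parental libraries. Every resistant value was below every parental value. The log2 fold change was -0.53 ± 0.07 (SE, 2 libraries a group; limma adjusted p = 0.00081), or 0.692 of the parental level.

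TUBA1C, another alpha-tubulin gene in the same cluster, at chr12:49188736-49274603 on the plus strand, showed the largest fall of the 10 genes. It had 9845 and 10891 scaled fragments in resistant cells and 20642 and 19590.1 in parental cells. The groups were far apart, with the higher resistant value well under the lower parental one. Resistant cells held 0.515 of the parental level, a log2 fold change of -0.96 ± 0.08 (SE; limma adjusted p = 0.00011).

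TUBA1A encodes the alpha-tubulin that is prominent in developing neurons. It lies at chr12:49184796-49189324 on the minus strand, where its start overlaps the start of the annotated span of TUBA1C on the other strand. It had 2662 and 2837 scaled fragments in resistant cells and 2813 and 2574 in parental cells. The 2 groups overlapped, and the log2 fold change was 0.03 with a 95% interval of -0.16 to 0.22 (limma adjusted p = 0.81). Its direction turned without resistant replicate 2 (-0.02) or parental replicate 2 (-0.03). That interval lies above the intervals of TUBA1B (-0.69 to -0.37) and TUBA1C (-1.13 to -0.78). The log2 ratio of TUBA1C to TUBA1A was 1.89 and 1.94 in resistant libraries and 2.88 and 2.93 in parental libraries, and that of TUBA1B to TUBA1A was 3.975 and 3.996 in resistant libraries and 4.52 and 4.57 in parental libraries. Both ratios were lower in each resistant library, with an exact two-sided permutation p of 0.333, the smallest that 2 against 2 libraries allow.

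TUBA4A encodes an alpha-tubulin whose coding sequence ends without a tyrosine codon, and it lies away from the cluster at chr2:219249711-219278170 on the minus strand. It had 2962 and 3057 scaled fragments in resistant cells and 5127 and 4448 in parental cells, without overlap. It fell by 0.67 ± 0.09 on the log2 scale (SE; limma adjusted p = 0.00083).

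TUBB4B, at chr9:137241213-137243707 on the plus strand, is a widely used beta-tubulin and the most abundant of the 5 beta genes. It had 12145 and 16450 scaled fragments in resistant cells and 23952 and 26507 in parental cells. The groups did not overlap, although the gap between the resistant libraries was the widest of the 10 genes in proportion. The log2 fold change was -0.83 ± 0.14 (SE; limma adjusted p = 0.0054), and the adjusted p was 0.051 when limma was run without trend and robust moderation.

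TUBB6 is a class V beta-tubulin whose main transcript shared no 100-base window with another gene, and whose annotated span overlaps AFG3L2 on the other strand. It lies at chr18:12307669-12344320 on the plus strand. It had 6157 and 7575 scaled fragments in resistant cells and 12825 and 13147 in parental cells. Every resistant value was far below every parental one. It fell by 0.93 ± 0.10 on the log2 scale (SE; limma adjusted p = 0.00041).

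TUBB2A and TUBB2B are neighbours on chromosome 6, at chr6:3153669-3157526 and chr6:3224261-3231730 on the minus strand, and their coding sequences were 98.1% identical. TUBB2A had 461 and 505 scaled fragments in resistant cells and 715 and 694 in parental cells, without overlap. Its log2 fold change was -0.54 ± 0.11 (SE; limma adjusted p = 0.0048), and without resistant replicate 1 it was -0.48 with an adjusted p of 0.051. TUBB2B was the lowest of the 10 genes, with 119.7 scaled fragments in each resistant library and with 207 and 131 in the parental libraries. Its parental libraries differed widely, and its log2 fold change of -0.46 did not pass the test (95% interval -0.99 to 0.07, limma adjusted p = 0.16). Without parental replicate 2 it was -0.79 with an adjusted p of 0.016. The sum of both genes, which does not depend on the split between them, was 581 and 625 scaled fragments in resistant cells and 922 and 825 in parental cells. The sum was 0.690 of the parental level, at the smallest p the exact permutation test allows (0.333).

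TUBB3, at chr16:89921392-89938761 on the plus strand, had 2438 and 2993 scaled fragments in resistant cells and 2231 and 2847 in parental cells. The groups overlapped, and the libraries of 1 group differed by more than the group means did. The log2 fold change was 0.10 with a 95% interval of -0.23 to 0.43 (limma adjusted p = 0.63), and it was -0.05 without resistant replicate 2 and -0.08 without parental replicate 1. A read-through gene, AC092143.1, overlaps it on the same strand and shares 89.0% of its 100-base windows. Its values were 36.0 and 50.3 scaled fragments in resistant cells and 21.6 and 34.2 in parental cells, so little of the signal had been assigned to it. Of 14 neuron markers, 8 were too low to be tested, among them DCX, STMN2 and ELAVL4. Of the 6 tested, RBFOX3 rose, NEFL fell and 4 did not pass the test. That is 16.7% each way, against 16.2% higher and 20.9% lower among all genes tested.

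TUBG1 encodes the main gamma-tubulin and lies at chr17:42609676-42615234 on the plus strand. It had 2688 and 2905 scaled fragments in resistant cells and 3365 and 3183 in parental cells. The groups were close to each other but did not overlap. The log2 fold change was -0.23 ± 0.08 (SE), and the limma adjusted p of 0.055 missed the threshold, with a 95% interval of -0.41 to -0.04. With the filter on low values at 50 the adjusted p was 0.049, which passes it.

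**Figure D3:**
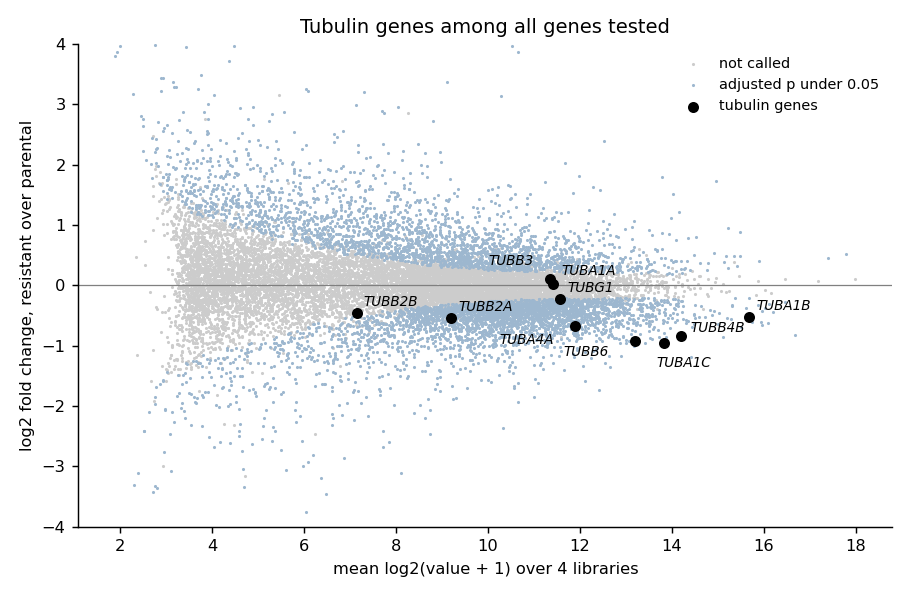
Log2 fold change, resistant over parental, against the mean log2(value + 1) of the 4 libraries for all 16132 genes tested, with the 10 tubulin genes in black. Blue points have an adjusted p under 0.05, and 23 genes lie beyond the axis limits of -4 and 4. The tubulin genes with the highest means lie below 0, and TUBA1A and TUBB3 lie close to 0.

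Levels were compared between genes per kilobase of merged exons. In both groups TUBA1B was first, followed by TUBB4B, TUBA1C, TUBB6 and TUBG1, and the ranges of these neighbours in the order did not overlap in either group. TUBA1B stood at 11712 to 12665 scaled fragments per kilobase in resistant cells and at 17151 to 18042 in parental cells. The next places differed between the groups. TUBA1A was above TUBA4A in resistant cells, at 778 to 829 against 726 to 749.5 scaled fragments per kilobase, and below it in parental cells, at 752 to 822 against 1090.4 to 1257. TUBB3, TUBB2A and TUBB2B followed in both groups. Per kilobase of the main transcript, TUBB3 came before TUBA1A in the mean of all libraries, while the other places did not move.

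The class sums were lower in resistant cells. Alpha genes summed to 15343 and 16595 scaled fragments per kilobase in the resistant libraries and to 24579 and 23224 in the parental libraries, a ratio of 0.668. Beta genes summed to 8120.4 and 10656 in the resistant libraries and to 15474 and 16854 in the parental libraries, a ratio of 0.581. Neither sum overlapped between the groups, and both stood at the smallest exact permutation p of 0.333. Without resistant replicate 1 the log2 ratio of the beta sum was -0.60, and without resistant replicate 2 it was -0.99. The ratio of alpha to beta sums was 1.89 and 1.56 in resistant cells and 1.59 and 1.38 in parental cells, with overlap (exact permutation p = 0.667). Together the 10 genes took 0.351% and 0.382% of the library signal in resistant cells and 0.55% and 0.52% in parental cells.

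TUBA1A, TUBA1B, TUBB2A and TUBB3 made up a larger share of their class in each resistant library than in each parental library. TUBA1A made up 5.03% ± 0.05 of the alpha sum in resistant cells and 3.29% ± 0.07 in parental cells (SD, n = 2 each; exact permutation p = 0.333). TUBA1C made up 14.0% ± 0.22 of the alpha sum in resistant cells and 18.2% ± 0.06 in parental cells, and TUBA1B 76.3% ± 0.02 in resistant cells and 73.6% ± 0.31 in parental cells. Of the beta sum, TUBB3 gave 6.56% ± 0.31 in resistant cells and 3.53% ± 0.39 in parental cells, and TUBB2A 3.02% ± 0.38 in resistant cells and 2.53% ± 0.21 in parental cells. The difference for TUBB3, 3.03 percentage points, was 5.00 points when values were divided by the length of the main transcript. TUBB4B gave 72.0% ± 1.61 of the beta sum in resistant cells and 73.9% ± 0.83 in parental cells, and TUBB6 17.8% ± 0.81 in resistant cells and 19.5% ± 0.84 in parental cells. Shares of a class add up to a fixed total, so they are not independent of each other.

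**Figure D4:**
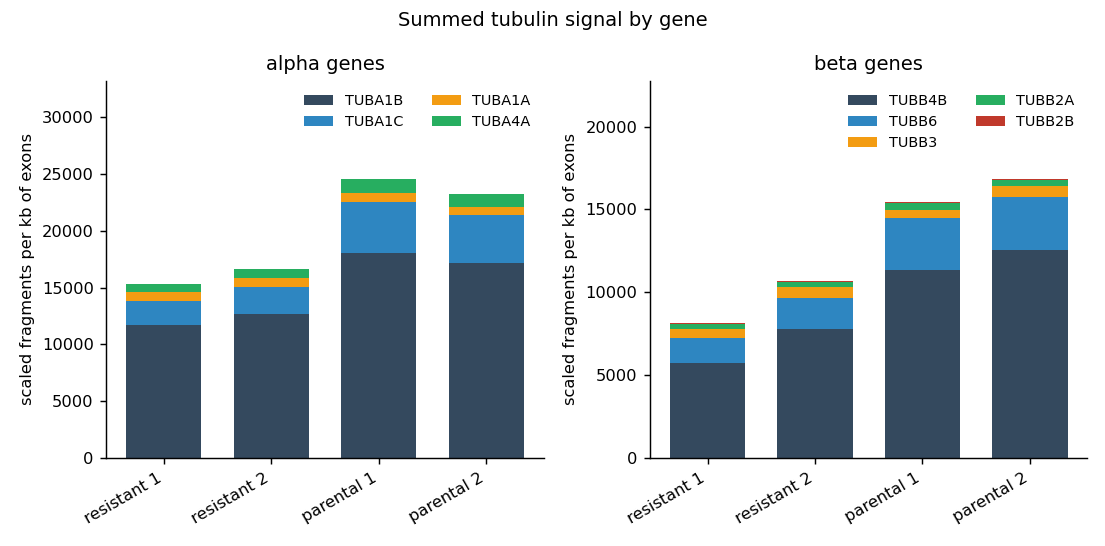
Scaled fragments per kilobase of merged exons, stacked by gene, for the alpha genes on the left and the beta genes on the right, in the 2 resistant libraries followed by the 2 parental libraries. Both sums are lower in each resistant library, at 0.668 and 0.581 of the parental mean, and TUBA1B and TUBB4B make up most of each bar.

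The beta sum lacks TUBB, which encodes the main class I beta-tubulin of most dividing cells. TUBB was listed at 0.75 and 0 in the resistant libraries and at 0 in both parental libraries. It lies at chr6:30720201-30725426 among genes with the same pattern: 8 of the 10 protein-coding genes within 100000 bases of it, itself included, stayed under 10 in every library. From 29 to 34 Mb on chromosome 6, 146 of 180 protein-coding genes (81.1%) stayed under 10, against 30.5% of other protein-coding genes. ATAT1, the alpha-tubulin acetyltransferase, lies there too and was listed at 0 in all 4 libraries. Whether the cells express TUBB or ATAT1 was not tested.

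The processed pseudogene TUBBP1, on chromosome 8, was 97.4% identical to the TUBB coding sequence. It had 3323 and 3167 scaled fragments in resistant cells and 5203 and 4454 in parental cells, without overlap. Its log2 fold change was -0.57 ± 0.09 (SE; limma adjusted p = 0.002). Whether fragments of TUBB were assigned to TUBBP1 was not tested. Adding TUBBP1 to the beta genes, an alternative chosen after the data were seen, gave a log2 ratio of the beta sum of -0.75, against -0.78 without it. Of 38 tubulin pseudogenes in the table, 3 were tested and 26 were at 0 in all libraries. TUBAP2 had 201 and 138 scaled fragments in resistant cells and 323 and 195 in parental cells, with overlap (limma adjusted p = 0.14). TUBBP2 had 9.04 and 6.79 in resistant cells and 19.5 and 13.4 in parental cells (limma adjusted p = 0.11).

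Of the 4 other tubulin genes tested, TUBE1 and TUBG2 rose (50.0%, against 16.2% of all genes tested). TUBE1 encodes epsilon-tubulin, a centriole protein, and had 1224 and 950.3 scaled fragments in resistant cells and 363 and 410.2 in parental cells. The groups were far apart, and the log2 fold change was 1.48 ± 0.14 (SE; limma adjusted p = 0.00022). TUBG2, the second gamma-tubulin gene, had 489 and 619 in resistant cells and 315 and 317 in parental cells. It rose by 0.80 ± 0.14 on the log2 scale (SE; limma adjusted p = 0.0029), and the log2 ratio of TUBG2 to TUBG1 was -2.46 and -2.23 in resistant libraries and -3.42 and -3.33 in parental libraries. The coding sequences of TUBG1 and TUBG2 were 94.7% identical.

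TUBD1, which encodes the centriole protein delta-tubulin, had 145 and 158 scaled fragments in resistant cells and 154 and 148 in parental cells (log2 fold change 0.01, limma adjusted p = 0.98). TUBA8 had 12.05 and 10.2 in resistant cells and 17.9 and 14.3 in parental cells (limma adjusted p = 0.36). TUBA3C, TUBA3D, TUBA3E, TUBAL3, TUBB, TUBB1, TUBB4A, TUBB8 and TUBB8B did not pass the filter, and none of them exceeded 4.07 scaled fragments in any library.

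The promoters of 4 genes are shown, 3 of the 6 that fell and TUBA1A, which did not pass the test. Each line gives 300 bases of RefSeq sequence on GRCh38.p14, from 250 bases before to 50 after a transcript start, read along the gene's strand. That start lay 244 bases from the GENCODE start of the main transcript for TUBA1A, 175 for TUBA1C, 74 for TUBB4B and 0 for TUBA1B. Capitals mark motif matches on either strand. The letters searched were CCAAT for the box of that name, GGGCGG for the GC box, TATAA for the element of that name, and TTTGAA for the cell cycle genes homology region.
TUBA1B, chr12:49131346-49131645, minus strand: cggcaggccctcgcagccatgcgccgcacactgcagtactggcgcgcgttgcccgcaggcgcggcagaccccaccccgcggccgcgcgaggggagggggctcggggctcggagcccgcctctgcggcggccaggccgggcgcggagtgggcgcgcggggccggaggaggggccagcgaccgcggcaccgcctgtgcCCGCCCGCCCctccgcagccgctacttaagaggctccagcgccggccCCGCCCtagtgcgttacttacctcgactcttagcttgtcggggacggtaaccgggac
TUBA1C, chr12:49264832-49265131, plus strand: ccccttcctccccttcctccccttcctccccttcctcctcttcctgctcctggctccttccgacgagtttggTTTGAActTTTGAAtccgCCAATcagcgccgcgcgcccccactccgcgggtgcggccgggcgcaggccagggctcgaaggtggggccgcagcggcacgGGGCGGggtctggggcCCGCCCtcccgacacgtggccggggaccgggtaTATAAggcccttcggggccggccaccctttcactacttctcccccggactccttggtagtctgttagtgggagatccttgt
TUBB4B, chr9:137241037-137241336, plus strand: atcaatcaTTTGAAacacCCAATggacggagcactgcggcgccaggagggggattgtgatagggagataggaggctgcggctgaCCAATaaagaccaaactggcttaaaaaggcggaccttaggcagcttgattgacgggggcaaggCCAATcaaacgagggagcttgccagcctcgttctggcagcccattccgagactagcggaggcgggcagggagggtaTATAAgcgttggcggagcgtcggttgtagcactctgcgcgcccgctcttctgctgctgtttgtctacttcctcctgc
TUBA1A, chr12:49189031-49189330, minus strand: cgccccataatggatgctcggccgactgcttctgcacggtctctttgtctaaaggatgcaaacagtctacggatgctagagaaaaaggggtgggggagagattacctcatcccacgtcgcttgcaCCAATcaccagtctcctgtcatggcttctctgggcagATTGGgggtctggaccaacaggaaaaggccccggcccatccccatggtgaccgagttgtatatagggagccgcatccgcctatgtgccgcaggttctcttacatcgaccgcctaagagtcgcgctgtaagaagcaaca
The TTTGAA letters occurred in 2 of the 10 promoters, those of TUBA1C and TUBB4B, against 15.2% of 35116 promoter windows. CCAAT occurred in 7 of 10 against 34.6%, GGGCGG in 8 of 10 against 45.0%, and TATAA in 5 of 10 against 20.4%. No matches of different motifs overlapped in the 10 windows, while matches of the same motif can overlap. A match describes letters and does not show that a factor binds there.

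Genes that fold, modify and use tubulin were taken from 7 lists. Newly made tubulin is passed by prefoldin to the chaperonin CCT and then to the cofactors TBCA to TBCE. In this folding list, 7 of 20 tested genes fell (35%, against 20.9% of all genes tested) and 1 rose (5.0%, against 16.2%), with a median log2 fold change of -0.16. The genes that fell were the CCT subunits CCT6A (-0.80), TCP1 (-0.65), CCT2 (-0.58), CCT5 (-0.56), CCT4 (-0.31) and CCT3 (-0.27), and the prefoldin subunit PFDN1 (-0.41), at limma adjusted p values of 0.00014 to 0.019. CCT6A had 6584 and 6852 scaled fragments in resistant cells and 11782 and 11593 in parental cells. CCT7 and CCT8 did not pass the test, at -0.003 and -0.18. With library-total scaling 5 genes of this list fell and 1 rose, while 2773 of all genes tested fell and 3665 rose. As deposited, 3370 of all genes tested fell and 2621 rose. PFDN5 rose by 0.34 (adjusted p = 0.022), a call lost without resistant replicate 1, resistant replicate 2 or parental replicate 2, with an adjusted p of at most 0.17. TBCA, TBCB, TBCC and TBCD lay between -0.14 and -0.06 and did not pass the test, and the TBCD value was 0.03 when scaled to library totals. TBCE was not analysed here.

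Feedback decay of tubulin mRNA runs through TTC5, SCAPER and the CCR4-NOT deadenylase. TTC5, which recognises the start of the nascent tubulin chain, had 582 and 618 scaled fragments in resistant cells and 538 and 502 in parental cells. The groups did not overlap, and the log2 fold change of 0.21 did not pass the test (limma adjusted p = 0.16), although it did at 0.30 when scaled to library totals (adjusted p = 0.042). SCAPER, which links TTC5 to the deadenylase, had 1024 and 953 in resistant cells and 606 and 702 in parental cells, and rose by 0.60 (adjusted p = 0.0035). In the list, 3 of 12 genes rose and 3 fell, 25.0% each way against 16.2% and 20.9% of all genes tested. Those that rose were SCAPER, CNOT8 by 0.40 and CNOT1 by 0.24, and those that fell were CNOT9 at -0.59, CNOT6 at -0.32 and CNOT7 at -0.28. The count of 6 became 3 without resistant replicate 1 or without parental replicate 2. With library-total scaling 4 genes of the list rose and 1 fell. With that scaling 3665 of all genes tested rose and 2773 fell, against 2621 and 3370 as deposited. Fewer of all genes tested were also called in each fit without a library. CNOT1 and CNOT6 each lost their call in 3 of the 4 fits that left out a library, with adjusted p values of up to 0.14 and 0.27, and CNOT7 lost it in all 4, with values of 0.056 to 0.25.

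Of 18 tested enzymes that modify tubulin, 5 fell (27.8%, against 20.9% of all genes tested) and 3 rose (16.7%, close to the 16.2% of all genes tested). TTL, which puts the last tyrosine back on alpha-tubulin, had 3258 and 3262 scaled fragments in resistant cells and 5203 and 4732 in parental cells, and fell by 0.61 (limma adjusted p = 0.00075). TTLL12 fell by 0.71 (adjusted p = 0.00096). The polyglutamylases TTLL11 and TTLL4 were at -0.66 and -0.37, and their calls were lost without resistant replicate 1 (adjusted p = 0.052 and 0.080). The TTLL4 call was also lost without resistant replicate 2 (adjusted p = 0.067). AGTPBP1, which removes glutamates from tubulin tails, rose by 0.39 (adjusted p = 0.0045). TTLL1 and AGBL2 rose by 1.06 and 1.22 at low levels, at most 114 scaled fragments in every library. TTLL1 lost its call without resistant replicate 1 (adjusted p = 0.075), and AGBL2 lost its call without either resistant library (adjusted p = 0.082 and 0.097). AGBL3, of the same family as AGBL2, fell to 0.436 of the parental level (adjusted p = 0.032), with 9.79 and 13.6 scaled fragments in resistant cells and 25.2 and 30.6 in parental cells, and lost its call in all 4 fits without a library (adjusted p = 0.052 to 0.17). The deacetylase HDAC6 had 1009 and 1031 in resistant cells and 779 and 916 in parental cells, and its 0.27 did not pass the test (adjusted p = 0.075), but did under library-total scaling (0.37, adjusted p = 0.011). Fewer genes of the list were called without either resistant library, and so were fewer of all genes tested. With library-total scaling 5 genes of the list fell and 5 rose. With that scaling 2773 of all genes tested fell and 3665 rose, against 3370 and 2621 as deposited.

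The gamma-tubulin ring complex and its partners start new microtubules, and 7 of 22 genes fell (31.8%, against 20.9% of all genes tested) and 3 rose (13.6%, against 16.2%). TUBGCP2 and TUBGCP3, 2 core subunits of the ring complex, rose by 0.53 (limma adjusted p = 0.0014) and 0.37 (adjusted p = 0.0064). TUBGCP2 had 6635 and 6914 scaled fragments in resistant cells and 4451 and 4918 in parental cells. It lies on chromosome 10 beyond 130 Mb, where 9 of 18 tested coding genes rose and 0 fell. The shares over all genes tested were 16.2% higher and 20.9% lower. Log2 fold changes had a median of 0.65 in that stretch and -0.02 over all genes tested. The part of this in the TUBGCP2 value was not tested. Another core subunit, TUBGCP4, fell by 0.25 (adjusted p = 0.028), a call lost in all 4 fits without a library (adjusted p = 0.060 to 0.16), under library-total scaling (adjusted p = 0.12) and without trend and robust moderation (adjusted p = 0.11). AKAP9, a centrosome and Golgi scaffold, rose by 0.36 (adjusted p = 0.022). The augmin subunits HAUS2, HAUS6 and HAUS3 fell by 0.49, 0.45 and 0.43, and the centrosome scaffold PCNT fell by 0.44. HAUS3 and AKAP9 each lost the call in 3 of 4 fits without a library, with adjusted p values of up to 0.11 and 0.10. TUBGCP3 and PCNT lost it without resistant replicate 1 (adjusted p = 0.058 and 0.059). Fewer genes of the list were called in each fit without a library, and so were fewer of all genes tested. With library-total scaling 5 genes of the list fell and 6 rose. With that scaling 2773 of all genes tested fell and 3665 rose, against 3370 and 2621 as deposited.

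Microtubule-associated proteins and spindle factors were mostly lower where they changed. Of 30 associated proteins tested, 13 fell (43.3%, against 20.9% of all genes tested) and 2 rose (6.67%, against 16.2%), with a median log2 fold change of -0.22, and without resistant replicate 1 there were 7 calls in all. With library-total scaling 10 fell and 4 rose. With that scaling 2773 of all genes tested fell and 3665 rose, against 3370 and 2621 as deposited. Fewer of all genes tested were also called in each fit without a library. MAPRE1, a protein that tracks growing plus ends, fell by 0.57 (limma adjusted p = 0.00097), MAP7D1 by 0.72, MAP1B by 0.41 and STMN1, a binder of free tubulin dimers, by 0.44 (adjusted p = 0.0027). STMN1 had 5691 and 6104 scaled fragments in resistant cells and 7748 and 8307 in parental cells. EML2 rose by 0.65 and MAPRE3 by 0.66, the call of MAPRE3 being lost without resistant replicate 2 (adjusted p = 0.088). MAP4, widely expressed outside neurons, was at -0.19 with an adjusted p of 0.051.

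In the spindle list 14 of 22 genes fell and none rose, with a median of -0.38 and against the 20.9% of all genes called lower. The mitotic kinesins KIF18B, KIF20A and KIF23 fell by 0.77, 0.62 and 0.61, and the midzone bundling protein PRC1 fell by 0.60, at limma adjusted p values of 0.00043 to 0.00068. PRC1 had 5996 and 6032 scaled fragments in resistant cells and 9314 and 8886 in parental cells. No value here tells whether the share of dividing cells differed between the cultures.

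Of 28 genes for transport motors, 9 fell (32.1%, against 20.9% of all genes tested) and 5 rose (17.9%, against 16.2%). The kinesin KIF1C fell by 0.72, the light chains DYNLL1 and DYNLL2 by 0.62 and 0.52, and the dynein adaptor BICD2 by 0.43. The dynactin subunit DCTN4 rose by 0.46, the kinesin-1 heavy chain KIF5A by 0.52 and the dynein light chain DYNLRB1 by 0.36, and the dynein intermediate chain DYNC1I1 rose by 1.57 at no more than 36.5 scaled fragments in every library. Without resistant replicate 2 the calls of KIF5A, DYNC1I1 and DYNLRB1 were lost (limma adjusted p = 0.051, 0.098 and 0.13), and without resistant replicate 1 that of DYNLRB1 (adjusted p = 0.067). The count of 14 calls was 8 without resistant replicate 1 and 6 without resistant replicate 2. With library-total scaling 5 genes of this list fell and 7 rose. With that scaling 2773 of all genes tested fell and 3665 rose, against 3370 and 2621 as deposited. Fewer of all genes tested were also called in each fit without a library.

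**Figure D5:**
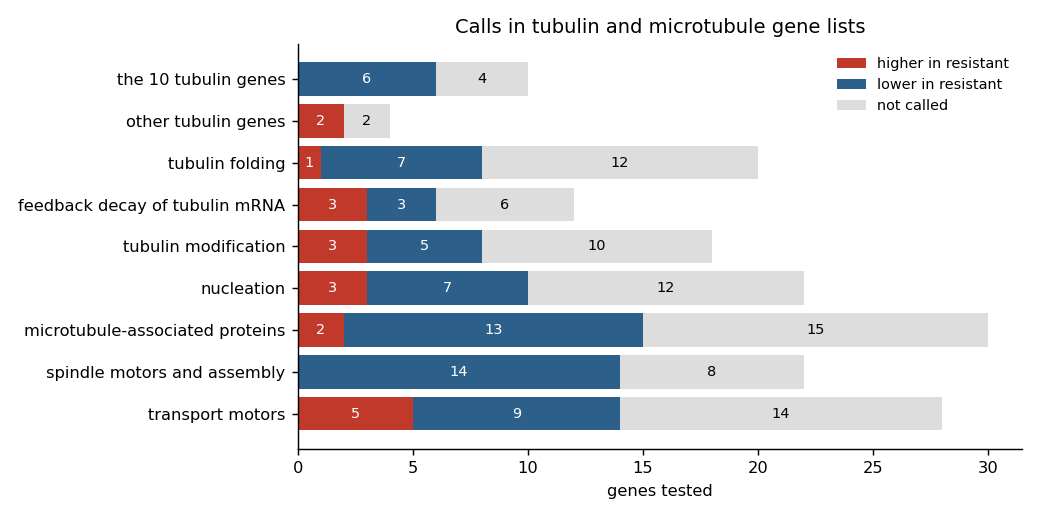
Number of genes tested in the 10 tubulin genes, the other tubulin genes and the 7 microtubule lists, split into genes called higher in resistant cells (red), called lower (blue) and not called (grey) at an adjusted p under 0.05. The 10 tubulin genes and the spindle list hold calls in 1 direction, lower, with 6 of 10 and 14 of 22.

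The profile of TUBA1B over the 4 libraries was nearest to those of BAG5, OSBPL11 and HAT1, by the Euclidean distance of centred log2 values (0.0061, 0.021 and 0.023). BAG5, a co-chaperone of HSP70, had 1441 and 1553 scaled fragments in resistant cells and 2213 and 2099 in parental cells. This likeness is only a description over 4 libraries. Of 13312 protein-coding genes compared, 252 lay within a distance of 0.1, a limit wider than the distances of the named genes.

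The glioma label was checked against 13 markers. GFAP, S100B and AQP4 stayed at or under 4.25 scaled fragments in every library and SOX2 at or under 10.5, whereas VIM, CD44, NES and EGFR were abundant. Among glioma markers, NES fell by 1.06, SOX9 by 0.70, VIM by 0.61 and CD44 by 0.47, and SLC1A3 and ALDH1L1 rose by 0.48 and 0.49, the call of ALDH1L1 being lost without resistant replicate 2 (limma adjusted p = 0.12). Epithelial markers summed to 35312 and 36978 scaled fragments in resistant cells and 18742 and 20582 in parental cells, nearly all of it KRT8 and KRT18, which rose by 1.07 and 0.85 as 2 of 7 tested. The other 5 did not pass the test. Among the 7 epithelial markers 28.6% rose, and among 9 tested glioma markers 22.2% rose and 44.4% fell. Among all genes tested, 16.2% rose and 20.9% fell.

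Of the other marker lists, blood cell markers summed to 1058 and 1111 scaled fragments in resistant cells and 693 and 625 in parental cells, and CD68 rose as 1 of 5 tested. Endothelial markers summed to 1008 and 893 in resistant cells and 1435 and 1638 in parental cells, and TIE1, CDH5 and TEK fell as 3 of 6, TEK losing its call in 3 of 4 fits without a library (limma adjusted p of up to 0.19). Fibroblast markers summed to 11963 and 10421 in resistant cells and 13322 and 10987 in parental cells, and THY1 fell as 1 of 7. Neuron markers summed to 1716 and 1899 in resistant cells and 2669 and 2853 in parental cells, and NEFL fell and RBFOX3 rose among 6 tested. Of the tested blood cell markers 20.0% rose and 0 fell. Of endothelial markers 50.0% fell and of fibroblast markers 14.3% fell, and 0 rose in either list. Of neuron markers 16.7% changed in each direction. Among all genes tested, 16.2% rose and 20.9% fell. The neuron shares and the share of blood cell markers that rose lay near those of all genes. The part of these marker genes in the tubulin differences was not tested.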

How the data were processed

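Total RNA of 4 cultures was sequenced from strand-specific libraries, per the labels' protocols. HISAT2 2.1.0, Cufflinks 2.2.1, Cuffdiff, SAMtools 1.2, Trimmomatic 0.36 and bcl2fastq are named by the submitters' processing notes, with build GRCh38.p10. No source used here gives their settings, the annotation release or the strand setting, so antisense partners cannot be told apart. The authors deposited a signal per gene, which is a rescaled fragment number with no division by gene length. One fragment was worth 0.753 and 0.849 in resistant libraries and 0.813 and 0.956 in parental libraries, and 93.7% to 94.2% of values were whole multiples within 0.05. This corresponds to about 27019137 to 30759939 fragments a library.

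Genes with a value of at least 10 in at least 2 libraries were tested as log2(value + 1) with limma 3.58.1 (R 4.3.3), with the group alone in the model, a mean-variance trend, robust moderation, two-sided tests and Benjamini-Hochberg adjustment over all genes. The fit was tested on simulated counts with a fixed dispersion and far fewer changed genes than were called here. That test does not show how the fit performs on these libraries. A change means an adjusted p under 0.05. Because the values are scaled, no count test was used. Sums and shares had exact permutation tests. GENCODE 29 held 57881 of the 58219 identifiers and gave symbols, coordinates and exon lengths.

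The members and lists were chosen with earlier results of these data known. Named are the 10 genes, other tubulin genes, the 3 highest tested pseudogenes, up to 4 called genes per direction with the smallest adjusted p in each list, some genes by role, and 3 genes nearest in profile to the member highest per kilobase. PFDN1, CCT3, CCT4, CCT7 and CCT8, AGBL3, TUBGCP4, AC092143.1 and unchanged markers were named after their values were seen. Alternatives were another pseudocount (0.5 or 5), filter (none or 50), scaling or moderation, a replicate block, leaving out each library, and other lengths. Some sequences are not reported here.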

Additional observations from a re-analysis of the deposited data

How the results depend on the processing

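Across 13 alternatives each, TUBA1B, TUBA1C, TUBA4A and TUBB6 kept their direction and their call, and no setting called any of the 10 tubulin genes higher. Each of the other tubulin genes among the 10 changed its direction or its call under 1 or 2 alternatives. TUBB2A was at -0.48 without resistant replicate 1 (adjusted p = 0.051, range without 1 library -0.61 to -0.48), TUBB4B at -0.83 with an adjusted p of 0.051 without trend and robust moderation, and TUBG1 at -0.23 with an adjusted p of 0.049 at a filter of 50. Leaving out 1 library at a time gave log2 fold changes of -0.034 to 0.094 for TUBA1A, -0.076 to 0.28 for TUBB3, -0.79 to -0.13 for TUBB2B, -0.054 to 0.065 for TUBD1 and -0.21 to 0.083 for TBCD, and a share difference for TUBB2B of -0.019 to 0.24 percentage points. TBCD was at 0.031 when scaled to library totals. The causes were not tested.

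Over all genes, 3686 were called without trend and robust moderation, and leaving out a library left 3528 to 5435. Scaled to library totals, 3665 of 6438 calls were higher (56.9%), against 43.7% as deposited. Without trend and robust moderation the lists had 5 calls (folding), 2 (feedback decay), 3 (nucleation), 5 (associated proteins), 9 (spindle) and 5 (transport). Leaving out a library gave 3 to 5 for feedback decay, 3 to 9 for modification, 3 to 9 for nucleation, 7 to 14 for associated proteins and 6 to 12 for transport. Fibroblast markers had 2 calls when scaled to library totals.

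Replicates 1 and 2 carry numbers that no label ties to a shared day. Over the genes tested, deviations of same-numbered libraries correlated at r = 0.265, in the 1 comparison that 2 pairs allow. The main fit had no block because no label ties the pairs, and this r does not show that they are unrelated. With a replicate block 8624 genes were called, TUBB2B was at -0.46 with an adjusted p of 0.012 and TUBG1 at -0.23 with an adjusted p of 0.002. Count tests in edgeR and DESeq2 were planned but not run, because the deposited values could not be turned back into whole counts. With 2 libraries a group, no exact permutation test could pass 0.05.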
